A study of Homo sapiens with 12 samples.

Results

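Mirtrons are microRNAs (miRNAs) whose hairpin precursor is a short spliced intron, and 10 mature mirtron miRNAs were followed here in differentiating osteosarcoma cells. The members were hsa-miR-1225-5p, hsa-miR-1225-3p, hsa-miR-1226*, hsa-miR-877, hsa-miR-1228, hsa-miR-1229, hsa-miR-1234, hsa-miR-1236, hsa-miR-1237 and hsa-miR-1238, written without the species prefix below, and were chosen by name from the 851 human miRNA names of the value table of an Agilent miRNA array. The cells were Saos-2, an osteosarcoma line, labelled parental with no transfection, and Sa/CD99, Saos-2 cells stably transfected with CD99 and selected in neomycin. CD99 is a transmembrane glycoprotein, which osteoblasts carry and most osteosarcomas do not. Both cell types were kept in osteogenic medium for 0, 7 or 14 days, so that 6 groups of 2 arrays each could be compared. The 2 Sa/CD99 arrays of a day were the clones wt22 and wt36, each a single transfected line. The labels do not say whether the 2 Saos-2 samples of a day came from separate cultures, so p-values measure only the spread between these samples. No vector-only transfectant was analysed here. These are bulk RNA samples, in which fewer cells with a miRNA and less of it per cell cannot be told apart. Of the 7 mesenchymal or osteoblastic marker miRNAs listed for the check of the cell type, 6 were detected on all 12 arrays and miR-143 on none. All 6 epithelial and 5 blood marker miRNAs were undetected on all 12 arrays, as were the nerve and liver markers, and 1 of 4 muscle markers was detected on some arrays.

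In the usual pathway the nuclear enzyme Drosha cuts a miRNA hairpin out of a longer transcript. A mirtron skips this step: the spliceosome releases the intron, the lariat is debranched and the intron itself folds into a hairpin that Dicer can cut. The 5′ arm of a mirtron therefore begins at or near the 5′ splice site and its 3′ arm ends at or near the 3′ splice site. Since a mirtron comes from a protein-coding transcript, its supply depends on the transcription and splicing of the host gene. Whether each member is made by splicing and without Drosha was not tested here.

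The sequences of the arms are shown first, because the 5′ and 3′ arms differ in base composition. RefSeq (GRCh38.p14) held a mature sequence for 9 of the 10 members. All 9 hairpins of the members lay within the span of a protein-coding gene. Of the 8 hairpins with a sequence, 8 began with GU and ended with AG, the letters that bound most introns, against 2.31% of the 1560 human hairpins in the same table. Exon and intron boundaries were not analysed here. The 5′ arms are given below from 5′ to 3′ with the seed, bases 2 to 8, in capitals. They comprise 3 members and miR-1224-5p, an arm of another mirtron that serves as a comparison.
miR-1225-5p: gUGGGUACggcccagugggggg
miR-1226*: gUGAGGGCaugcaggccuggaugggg
miR-877: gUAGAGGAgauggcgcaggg
miR-1224-5p: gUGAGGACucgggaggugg
The hairpin of miR-1225 lies on the minus strand at chr16:2090195-2090284 within PKD1, which encodes polycystin-1. The hairpin of miR-1226* lies on the plus strand at chr3:47849555-47849629 within DHX30, an RNA helicase gene. The hairpin of miR-877 lies on the plus strand at chr6:30584332-30584417 within ABCF1, which encodes a protein linked to translation. The comparison arm miR-1224-5p is encoded at chr3:184241405-184241489 on the plus strand, within VWA5B2. The 3 member 5′ arms each started at the first base of the hairpin. They held 53.8% to 59.1% G and 10.0% to 18.2% C.

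The 3′ arms are given in the same way.
miR-1225-3p: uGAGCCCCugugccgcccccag
miR-1228: uCACACCUgccucgcccccc
miR-1229: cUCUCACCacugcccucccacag
miR-1236: cCUCUUCCccuugucucuccag
miR-1237: uCCUUCUGcuccgucccccag
miR-1238: cUUCCUCGucugucugcccc
These sequences were opposite to the 5′ arms in composition, with 50% to 65% C and 8.70% to 27.3% G. In 4 of 6 the last base of the mature sequence was the last base of the hairpin, and in miR-1228 and miR-1238 it lay 2 bases before it. The 9 sequences carried 9 different seeds, so no members were grouped by seed. Their GC content was 59.1% to 77.3% with a median of 66.7%, against a median of 52.2% over 2370 human mature sequences. The hosts of the 3′ arms were LRP1 for miR-1228 (chr12:57194504-57194576, plus strand), a lipoprotein receptor gene, and MGAT4B for miR-1229 (chr5:179798278-179798346, minus strand), a glycosyltransferase gene. miR-1236 lies at chr6:31956839-31956940 on the minus strand within NELFE, a subunit of the negative elongation factor. miR-1237 lies at chr11:64368602-64368703 on the plus strand within RPS6KA4, a kinase gene. miR-1238 lies at chr19:10552122-10552204 on the plus strand within ATG4D, an autophagy protease gene. miR-1234 is the tenth member, and its host is CPSF1, a subunit of the cleavage and polyadenylation machinery.

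Sample labels differ between the 2 kinds of deposited file, and this bears on each value below. For each column of the authors' table of log2 values there was 1 scanner array on which the same miRNAs were detected, over 847 of 847 shared names, while the next best array matched on 806 to 826. For 12 of 12 columns the matching array was filed under another sample. The values below follow the column labels of the table. Scanner signals are given for the matching array under the same labels, and values with the arrays as filed are given for detection, the 5′ arms, miR-1229 and the arm ratio, where the courses differ. By the matching arrays, the 4 day 0 samples and the 2 Saos-2 day 7 samples were on slide 1 and the other 6 samples on slide 2. Slide and group cannot be told apart for changes that cross slides, while Saos-2 day 0 to 7, Sa/CD99 day 7 to 14 and the cell types at day 0 and at day 14 can each be compared within 1 slide. The summed scanner signal of an array was 8594 to 11371 at day 0, 25232 to 56553 at day 7 and 39910 to 62236 at day 14, and 133 to 158, 158 to 229 and 195 to 214 miRNAs were detected. The part of this rise in the results was not tested. The lowest detected value of a column of the table also moved, and was 0.75 to 2.39 on the log2 scale in the day 0 columns and -2.57 to -1.61 in those of day 14.

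More mirtrons were detected on the later arrays. Per array, 4 to 6 of the 10 members were detected at day 0, 7 to 9 at day 7 and 9 at day 14. miR-1225-5p, miR-1228, miR-1234 and miR-1238 were detected on 12 of 12 arrays, miR-1225-3p on 11 and miR-1237 on 9. miR-1226*, miR-877 and miR-1229 were detected on 0 of 4 arrays at day 0 and on 3, 4 and 4 of 4 at day 7 and on 4 of 4 at day 14. miR-1236 was undetected on all 12 arrays and could not be tested. The other 9 members were among the 219 miRNAs tested, a set that required detection on both arrays of some group. 6 of the 9 passed that filter at day 0 already in at least 1 cell type, whereas miR-1226*, miR-877 and miR-1229 passed it only through later days. With the arrays as filed, detection did not rise with day: 6 to 9 members were detected per array at day 0, 4 to 9 at day 7 and 6 to 9 at day 14.

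**Figure D1:**
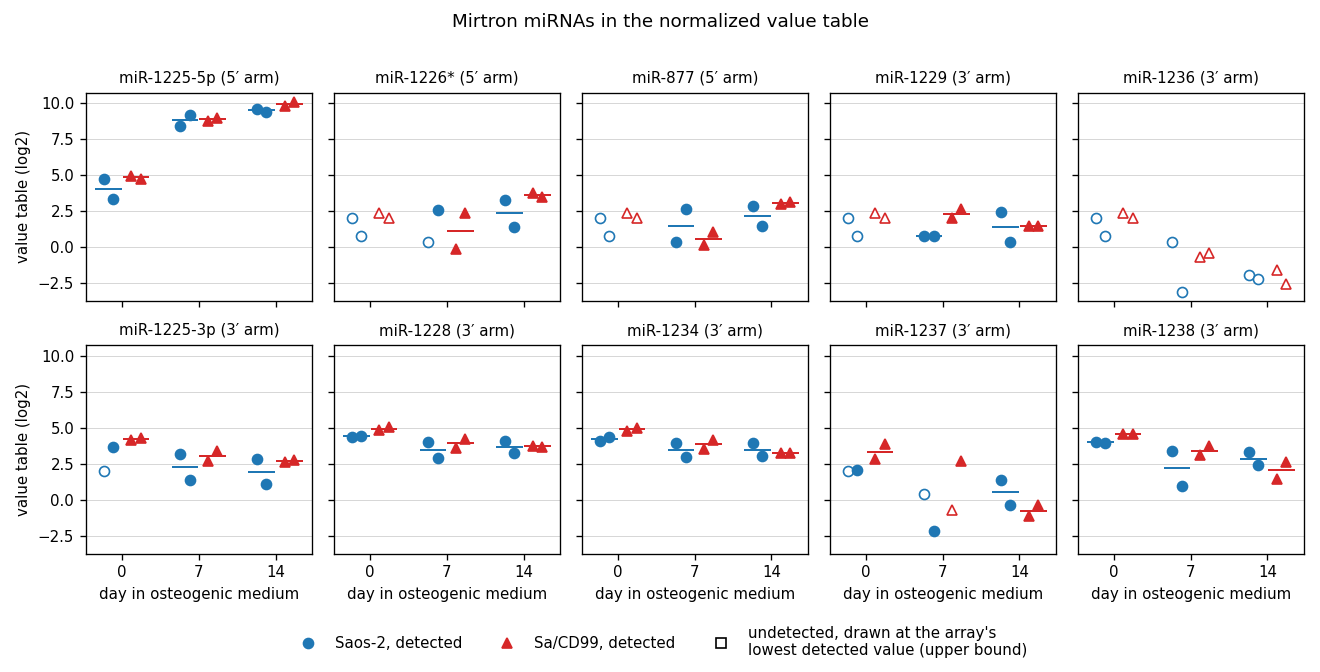
Normalized log2 value in the authors' table (vertical axis) of the 10 mirtron miRNAs on each of the 12 arrays by day in osteogenic medium (horizontal axis), circles for Saos-2 and triangles for Sa/CD99, with lines for the means of groups detected on both arrays. Open symbols are undetected samples drawn at the lowest detected value of their array. miR-1225-5p runs from 3.32 to 4.94 at day 0 and from 9.42 to 10.09 at day 14, while miR-1236 is open on every array.

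miR-1225-5p was called higher at both later days in both cell types. In the table its log2 values in Saos-2 were 4.77 and 3.32 at day 0, 8.46 and 9.20 at day 7 and, by day 14, 9.61 and 9.42. In Sa/CD99 they were 4.94 and 4.77 at day 0, 8.80 and 8.96 at day 7, and 9.83 and 10.09 at day 14. The 4 day 0 samples were lower than the 8 later samples with no overlap. From day 0 to day 7 miR-1225-5p rose by a log2 difference of 4.78 (SE 0.53, n = 2 against 2, limma adjusted p = 0.000192) in Saos-2 and 4.02 (SE 0.53, adjusted p = 0.000648) in Sa/CD99. From day 0 to day 14 it rose by 5.47 (SE 0.53, adjusted p = 4.36e-05) in Saos-2 and 5.10 (SE 0.53, adjusted p = 6.15e-05) in Sa/CD99. The differences from day 7 to day 14 were 0.69 in Saos-2 (adjusted p = 0.866) and 1.08 in Sa/CD99 (adjusted p = 0.174). The Saos-2 rise to day 7 had the same size and an adjusted p of 0.00434 with the 6 samples of slide 1 alone.

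The scanner signal of miR-1225-5p, which had no normalization between arrays, showed the same order. In Saos-2 the signal was 14.9 and 6.85 at day 0, 226 and 996 at day 7, and 877 and 1006 at day 14. In Sa/CD99 it was 15.9 and 14.3 at day 0, 391 and 539 at day 7, and 1307 and 2014 at day 14. The mean signal at day 14 was 86.7 times that at day 0 in Saos-2 and 110 times in Sa/CD99. Its share of the summed signal of the array was 0.0603% to 0.175% at day 0, 0.895% to 1.76% at day 7 and 2.17% to 3.24% at day 14, so it grew faster than the total. With the matched arrays processed by the rma adaptation of the methods, the rise to day 14 was 6.20 in Saos-2 and 5.24 in Sa/CD99 on the log2 scale. With the arrays as filed no such order was seen: the signals were 1307 and 877, 391 and 2014, and 1006 and 539 in Saos-2 at days 0, 7 and 14, and 226 and 15.9, 14.9 and 996, and 14.3 and 6.85 in Sa/CD99. As filed, the 2 Sa/CD99 clones of 1 day thus differed by a larger ratio than the clones did in the matched arrays. No change with day passed the test for any member in that record.

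The other arm of the same hairpin did not follow miR-1225-5p. miR-1225-3p had table values of 4.15 and 4.28 at day 0, 2.73 and 3.40 at day 7, and 2.61 and 2.79 at day 14 in Sa/CD99. In Saos-2 it was undetected in replicate 1 and at 3.65 in replicate 2 at day 0, then at 3.16 and 1.36 at day 7, and 2.81 and 1.09 at day 14. Its difference from day 0 to day 14 was -1.52 (SE 0.78, adjusted p = 0.101) in Sa/CD99 and -0.88 (SE 0.78, adjusted p = 0.322) in Saos-2, so neither change passed the test. The Saos-2 value is only a lower limit, since replicate 1 of day 0 was set to the lowest detected value of its column, and with the floor as deposited it was 1.64 with the opposite sign (adjusted p = 0.454). In Sa/CD99 it was called lower with the matched arrays by rma, by a log2 difference of -1.22 to day 7 (adjusted p = 0.0231) and -1.18 to day 14 (adjusted p = 0.0146), and with a common floor in the table by -1.52 to day 14 (adjusted p = 0.0267). Its scanner signal where detected was 8.15 to 8.51 at day 0, 7.12 to 12.4 at day 7 and 10.3 to 14.3 at day 14. The arms were compared within each array, which needs no normalization between arrays. The log2 ratio of the 5′ to the 3′ signal, taken relative to its mean over the 4 day 0 samples, was -1.43 to 2.13 at day 0, 3.80 to 5.28 at day 7 and 5.20 to 5.95 at day 14, with the undetected 3′ arm set to the lowest detected signal of its array. The highest day 0 ratio is the one with the undetected 3′ arm and is a lower limit, so the differences from day 0 are upper limits. The ratio was higher by at most 4.43 at day 7 and 5.50 at day 14 (4 against 4 samples, with days exchanged within each cell type, exact two-sided permutation p = 0.0556 for each of 2 comparisons, adjusted p = 0.0556). This is the smallest p that the 36 regroupings can give, so the test could not pass 0.05. With the arrays as filed the ratio, relative to the day 0 mean of that record, was -3.86 to 2.02 at day 0, -1.47 to 2.36 at day 7 and -5.03 to 1.61 at day 14, so that the days overlapped. A shift in the ratio shows that the arms changed unequally, not that the 3′ arm held its level.

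By the column labels, the other 5′ arms were detected only after day 0. miR-1226* was undetected at day 0 in all 4 samples. At day 7 it stood at -0.15 and 2.39 in Sa/CD99 and, in Saos-2, was undetected in replicate 1 and at 2.56 in replicate 2. At day 14 it stood at 3.78 and 3.52 in Sa/CD99 and at 3.29 and 1.42 in Saos-2. miR-877 was likewise undetected at day 0. Its table values were 0.13 and 1.02 at day 7 and 2.98 and 3.11 at day 14 in Sa/CD99, and 0.37 and 2.64 at day 7 and 2.85 and 1.44 at day 14 in Saos-2. Because day 0 holds only an upper bound, the day 14 values of miR-1226* were higher by at least 1.45 in Sa/CD99 (adjusted p = 0.192) and at least 0.98 in Saos-2 (adjusted p = 0.38), and those of miR-877 by at least 0.85 (adjusted p = 0.329) and 0.77 (adjusted p = 0.382), none of which passed the test. With the arrays as filed the course was the reverse in part. miR-1226* was then detected on both Saos-2 arrays of day 0, at signals of 19.8 and 13.1, and on neither Sa/CD99 array of day 14. miR-877 was likewise at 15.3 and 10.4 in Saos-2 at day 0 and undetected on both Sa/CD99 arrays of day 14.

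The size of these differences turned on the scale. In scanner signal, miR-1226* was 19.8 and 24.4 at day 14 in Sa/CD99 and 13.1 and 13.3 in Saos-2, while the lowest signal detected on a day 0 array was 1.33 to 1.496. miR-877 was 15.3 and 18.4 in Sa/CD99 and 10.4 and 13.4 in Saos-2 at day 14. With no normalization between arrays, the day 14 values of miR-1226* lay above the day 0 bound by at least 4.00 on the log2 scale in Sa/CD99 and 3.23 in Saos-2, and those of miR-877 by at least 3.61 and 3.07. With the matched arrays normalized by rma the log2 differences were 2.98 and 2.02 for miR-1226*, and 2.47 and 1.55 for miR-877. Both settings called these differences, but both miRNAs entered the tested set only through the days on which they were detected, so the calls are no support for a rise from day 0. In Sa/CD99 from day 7 to day 14, a comparison within slide 2, the table differences were 2.53 for miR-1226* (adjusted p = 0.117) and 2.47 for miR-877 (adjusted p = 0.072). With clone and replicate number as a block, miR-877 passed at an adjusted p of 0.0491. Both were detected on both arrays of both days there.

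miR-1224-5p, the comparison 5′ arm, was likewise seen only after day 0. It was undetected in the 4 day 0 samples and detected in the 8 later ones, at 3.83 to 4.60 at day 7 and 4.46 to 5.75 at day 14. Its values lay above the day 0 bound in Saos-2 by at least 2.57 on the log2 scale at day 7 and 3.60 at day 14, and in Sa/CD99 by at least 2.14 and 3.45. These are given with no test, since it too entered the tested set through the later days. As filed, its signal was 71.0 and 46.2 in Saos-2 at day 0, and it was undetected on both Sa/CD99 arrays of day 14. It was 1 of 6 further mirtron arms looked up. miR-877*, the 3′ arm of the miR-877 hairpin, was detected on 4 of the 8 later arrays at scanner signals of 1.53 to 3.46, and no change of it was called. miR-1224-3p, miR-1226, miR-1227 and miR-1228* were detected on no array, so that of the miR-1226 hairpin only the 5′ arm was seen.

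The 3′ arms miR-1228, miR-1234, miR-1237 and miR-1238 had lower values at later days in the table. With the matched arrays by rma they were called lower in Sa/CD99 from day 0 to day 14, by a log2 difference of -1.45 for miR-1228 (adjusted p = 0.00979), -1.80 for miR-1234 (adjusted p = 0.00439), -0.90 for miR-1237 (adjusted p = 0.0153) and -2.09 for miR-1238 (adjusted p = 0.000583). In scanner signal with no normalization, none of these 4 changes passed the test. In Sa/CD99, miR-1234 went from 4.81 and 5.00 at day 0 to 3.55 and 4.15 at day 7 and 3.24 and 3.24 at day 14. It fell by 1.67 from day 0 to day 14 (SE 0.50, adjusted p = 0.0136), while the difference was 0.27 with the opposite sign in scanner signal with no normalization and 0.15 with the arrays as filed, neither past the test. miR-1238 went from 4.55 and 4.60 to 3.09 and 3.74 and to 1.47 and 2.61 in Sa/CD99. It fell by 2.53 from day 0 to day 14 (SE 0.75, adjusted p = 0.0128), with -0.08 in scanner signal with no normalization and 0.27 with the arrays as filed, neither past the test. miR-1237 was at 2.81 and 3.90 at day 0, undetected and 2.73 at day 7, and at -1.13 and -0.36 at day 14. It fell by 4.10 (SE 1.14, adjusted p = 0.0094), yet its scanner signal was 2.67 and 6.68 at day 0 and 2.82 and 6.27 at day 14, a log2 difference of -0.01.

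miR-1228 had table values of 4.85 and 5.05 at day 0, 3.59 and 4.24 at day 7, and 3.74 and 3.70 at day 14 in Sa/CD99. Its difference from day 0 to day 14 of -1.23 (SE 0.51, adjusted p = 0.0506) did not pass the test, and passed with the block (adjusted p = 0.0257). Its scanner signal was 14.4 and 17.3 at day 0 and 19.6 and 25.8 at day 14. In Saos-2 the differences of these 4 arms from day 0 to day 14 in the table were -0.75 for miR-1228, -0.75 for miR-1234, -1.53 for miR-1237 and -1.14 for miR-1238, none past the test. The value of miR-1237 is a lower limit, because replicate 1 of day 0 was undetected, and it was 0.99 with the floor as deposited (adjusted p = 0.697). Scanner signal in Saos-2 had the opposite direction, with a mean at day 14 of 1.79 times that at day 0 for miR-1228, 1.83 times for miR-1234 and 1.497 times for miR-1238, and no log2 difference of the 4 arms passed the test there. From day 0 to day 7 in Saos-2, miR-1237 and miR-1238 differed by -2.96 (adjusted p = 0.0551) and -1.81 (adjusted p = 0.0671). Both passed with the replicate block (adjusted p = 0.02 and 0.0291), and miR-1237 passed with the samples of slide 1 alone (adjusted p = 0.0332). miR-1237 was undetected on 1 of 2 Saos-2 arrays at each of these days, so its difference rests in part on the lowest detected values of those columns. Its scanner signal where detected was 3.001 at day 0 and 3.34 at day 7, and the mean signal of miR-1238 was 9.26 and 9.28.

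**Figure D2:**
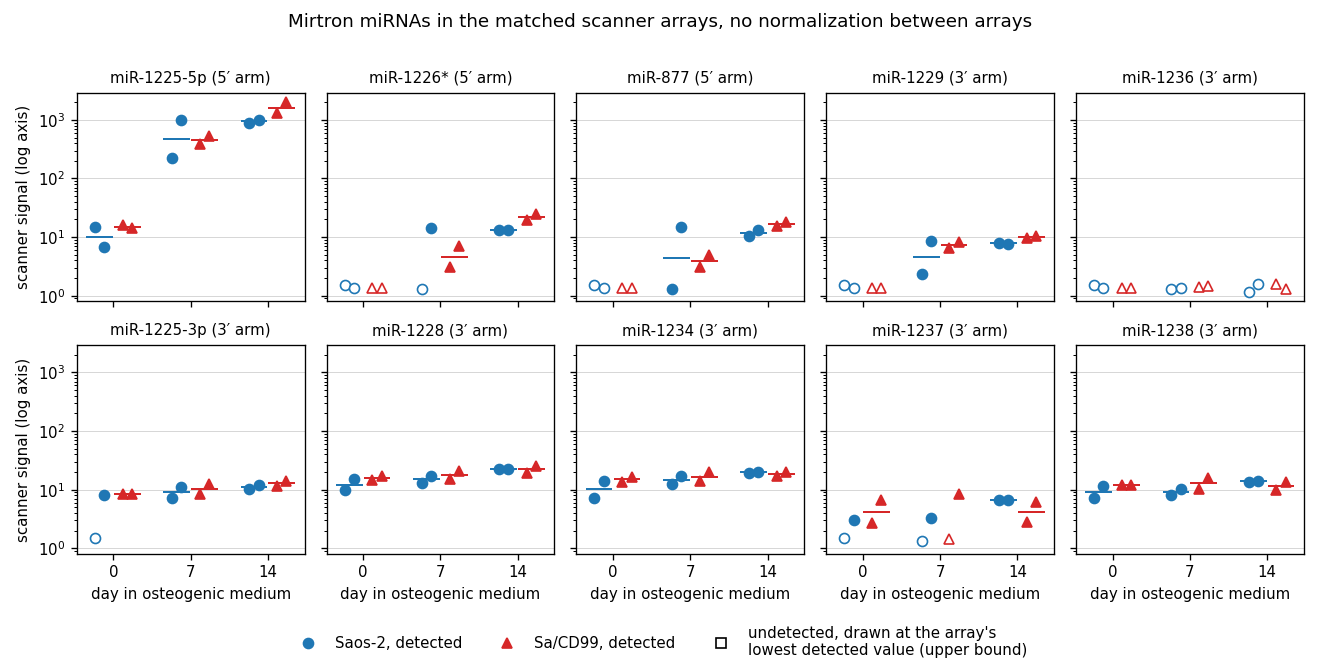
Scanner signal of the 10 mirtron miRNAs (vertical log axis) on the array that matches each table column, with no normalization between arrays, by day in osteogenic medium (horizontal axis), circles for Saos-2 and triangles for Sa/CD99, with lines for the geometric means of groups detected on both arrays. Open symbols are undetected samples drawn at the lowest detected signal of their array. miR-1225-5p rises from 6.85 to 15.9 at day 0 to 877 to 2014 at day 14, while miR-1238 stays between 7.14 and 16.1.

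miR-1229 was the 3′ arm that did not go with the others. It was undetected at day 0 and detected in all 8 later samples, at 2.004 and 2.64 at day 7 and 1.44 and 1.47 at day 14 in Sa/CD99, and at 0.75 and 0.75 and then 2.44 and 0.39 in Saos-2. The table values at day 14 lay near or below the lowest values that could be detected at day 0, so the table gives no direction for most of its changes. Its scanner signal at day 14 was 9.57 and 10.6 in Sa/CD99 and 8.08 and 7.75 in Saos-2. With no normalization its day 14 values lay above the day 0 bound by at least 2.88 on the log2 scale in Sa/CD99 and 2.49 in Saos-2, and with the matched arrays normalized by rma the differences were 0.52 and 0.59. miR-1229 too entered the tested set only through the later days, so that no call from day 0 is read from these. As filed, it was detected on both Saos-2 arrays of day 0, at 9.57 and 8.08, and on neither Sa/CD99 array of day 14.

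Counted over the 9 tested members, 1 rose and 0 fell from day 0 to day 7 in Saos-2, where 40.6% of the 219 tested miRNAs were called, 18.3% higher and 22.4% lower. From day 0 to day 14 in Saos-2, 1 rose and 0 fell, against 50.7% called, 18.3% higher and 32.4% lower. In Sa/CD99, 1 rose and 0 fell from day 0 to day 7, against 31.5% called, 14.2% higher and 17.4% lower. From day 0 to day 14 in Sa/CD99, 1 rose and 3 fell, against 61.6% called, 18.3% higher and 43.4% lower. No member was called from day 7 to day 14 in Saos-2 (1.37% of all tested, each of them lower, and 0 members at an unadjusted p under 0.05) or in Sa/CD99 (7.31% of all tested, 4.11% higher and 3.20% lower, and 2 members at an unadjusted p under 0.05). In the table none of these counts lay above the share over all tested miRNAs. This turned with the processing. In Saos-2 from day 0 to day 14, 4 of 9 members were called with no normalization, against 32.0% of all tested, and with 75th percentile scaling, against 37.0%. With no filter on undetected miRNAs, 2 of 10 were called from day 0 to day 7 in Saos-2, against 10.9%, and 3 of 10 from day 0 to day 14 in Sa/CD99, against 12.6%. Those shares are over all 851 names, most of them undetected on each array. A miRNA undetected in both groups could not be called, which lowers the share. In Sa/CD99, with the matched arrays by rma, 6 of 9 members were called from day 0 to day 7, against 40.6% of all tested, and 8 of 9 from day 0 to day 14, against 72.1%. A common floor in the table gave 8 of 9 from day 0 to day 14, against 63.0%. Apart from leaving out single samples, the members' share lay above that of all tested in 9 of 15 alternatives from day 0 to day 14 in Sa/CD99, 4 of 15 from day 0 to day 7, 3 of 17 from day 7 to day 14, and in Saos-2 in 2 of 15, 1 of 16 and 0 of 16. Some of these counts include members seen only after day 0. The median difference from day 0 to day 14 was -0.75 over the members and -1.27 over all tested miRNAs in Saos-2, and -1.23 against -1.51 in Sa/CD99, so the table as a whole was lower at day 14. These medians turned with the processing. With a common floor in Sa/CD99 they were -0.96 over the members and -0.27 over all tested, and with the matched arrays by rma -0.90 and -0.36, the opposite order. By rma in Saos-2 they were 0.36 and -0.21. With no normalization the medians were above 0, at 1.68 and 0.53 in Saos-2 and 0.61 and 0.73 in Sa/CD99. In Sa/CD99 from day 0 to day 14 the members split 1 higher to 3 lower in the table, 3 to 5 in the matched arrays with rma and 4 to 0 in scanner signal with no normalization, where 3 of the 4 were miR-1226*, miR-877 and miR-1229, undetected at day 0. The split over all tested miRNAs moved likewise, from 18.3% higher and 43.4% lower in the table to 36.5% and 35.6% with rma and to 39.3% and 4.57% with no normalization.

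The counts also turned on single arrays. For Sa/CD99 from day 0 to day 14, 2 members were called without clone wt22 of day 0 (49.1% of all tested), 1 without clone wt36 of day 0 (45.0%), 1 without clone wt22 of day 14 (46.5%) and 3 without clone wt36 of day 14 (50.5%). miR-1225-5p was called in each of these, and the share of all tested miRNAs fell from 61.6% as well. For Saos-2 from day 0 to day 7, 4 were called without Saos-2 replicate 1 of day 7 (51.5% of all tested), where miR-1228, miR-1237 and miR-1238 also fell, and 2 without either Sa/CD99 clone of day 7 (33.0% and 34.4%). For Sa/CD99 from day 0 to day 7, 2 were called without clone wt36 of day 7 (11.8%), the second being miR-1237.

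**Figure D3:**
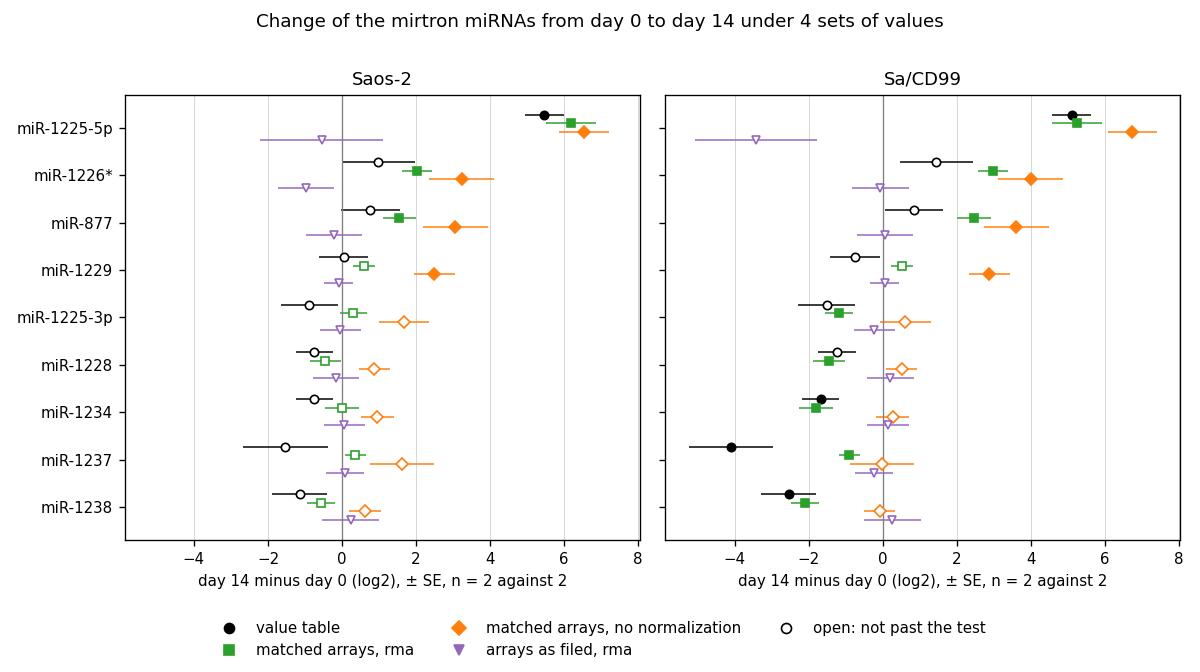
Log2 difference from day 0 to day 14 with its SE (horizontal axis) for the 9 tested mirtron miRNAs (vertical axis) in Saos-2 and Sa/CD99, under the value table, the matched scanner arrays with rma, the matched arrays with no normalization, and the arrays as filed. Filled symbols passed an adjusted p of 0.05. miR-1225-5p is filled and above 4 in each set but the arrays as filed. miR-1225-3p, miR-1228, miR-1234, miR-1237 and miR-1238 are filled below 0 in Sa/CD99 with rma on the matched arrays, the last 3 of them also in the table. miR-1226*, miR-877 and miR-1229 were undetected at day 0, so their points are differences from a bound.

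CD99 transfection was compared next, at each day. At day 0 the 4 members detected on all arrays had mean table values that were higher in Sa/CD99 by 0.55 for miR-1228 to 0.81 for miR-1225-5p. The median over all 219 tested miRNAs was also higher in Sa/CD99, by 0.42. miR-1224-5p, undetected in the 4 samples, differed by 0.82 through the lowest detected values of the columns alone. miR-1225-3p and miR-1237 were undetected on 1 of 2 Saos-2 arrays and were higher in Sa/CD99 by at least 1.39 and 1.30. None passed the test, nor did any of the 219 miRNAs (0% called, 0 members at an unadjusted p under 0.05). With the matched arrays normalized by rma, 0 members passed, against 0% of all tested. At an unadjusted p under 0.05 there were 6 members, each higher in Sa/CD99. The share of all tested miRNAs at that p was not counted, so nothing is read from the 6. Median differences in that setting were 0.997 over the members and -0.016 over all tested. At day 7 no member was called (0.913% of all tested), and miR-1229 had the smallest unadjusted p, 0.0419, at 2.004 and 2.64 in Sa/CD99 and 0.75 and 0.75 in Saos-2. Without Saos-2 replicate 1 of day 7, miR-1238 was called at 2.43 higher in Sa/CD99 (adjusted p = 0.036), against a Saos-2 group of 1 sample and with 8.71% of all tested called. At day 14 no member was called (4.57% of all tested, 0 members at an unadjusted p under 0.05), and the differences ran from -1.26 for miR-1237 to 1.30 for miR-1226*. Over all days the largest difference was 0.98 for miR-1225-3p (SE 0.45, adjusted p = 0.319), with 0 members called, 0 at an unadjusted p under 0.05 and 0% of all miRNAs called. The value of miR-1225-3p is a lower limit, since Saos-2 replicate 1 of day 0 was undetected.

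The interaction of cell type and day passed the test for 0 of the 9 members (1.83% of all tested, 0 members at an unadjusted p under 0.05). The change of miR-1225-5p from day 0 to day 14 differed between Sa/CD99 and Saos-2 by -0.37 (SE 0.74). A p that misses the threshold with 2 samples a group does not show that the cell types behaved alike. With the arrays as filed, where cell type and slide coincide, 3 members were lower in Sa/CD99 over all days: miR-1225-5p by -3.83 (adjusted p = 0.0234), miR-1226* by -1.72 (adjusted p = 0.0234) and miR-877 by -1.33 (adjusted p = 0.038), among 43.7% of 213 miRNAs called. These are the 3 member 5′ arms, and in that record cell type and slide cannot be told apart.

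The courses of the members were compared in pairs over the 12 columns of the table, as a description with no test. The closest pair of 3′ arms was miR-1228 and miR-1234 (Pearson r = 0.97), and miR-1226* and miR-877 had r = 0.93. In the table, miR-1225-5p was less close to the other 5′ arms, with r = 0.33 for miR-1226* and 0.22 for miR-877. In scanner signal the r of miR-1225-5p was 0.89 with each of them. Among the 3′ arms, miR-1229 had r = 0.50 with miR-1225-3p to 0.56 with miR-1237, while in scanner signal its closest members were miR-1225-5p (r = 0.97), miR-1226* (0.93) and miR-877 (0.93). The hosts of these pairs lie on different chromosomes. miR-1225-5p and miR-1225-3p of 1 hairpin had r = -0.52 in the table and 0.59 in scanner signal. All samples share the floor and the depth of their array, which enter these values. The 5 other miRNAs closest to the mean course of the 9 members were miR-936 (r = 0.74), miR-940 (0.72), miR-1182 (0.72), miR-33b* (0.68) and miR-423-5p (0.66). Of the 12 arrays, miR-936 was detected on 6, miR-1182 on 4 and miR-33b* on 10, so their r rests in part on undetected values.

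Intronic miRNAs of the usual kind, cut by Drosha, were counted beside the mirtrons. Of 23 listed, such as miR-103, miR-26a and miR-342-3p, 16 were tested. None rose in the table from day 0 to day 7 or day 14 in either cell type. In Saos-2, 4 fell by day 7 and 6 by day 14, and in Sa/CD99, 6 fell by day 7 and 12 by day 14, against 22.4%, 32.4%, 17.4% and 43.4% of all tested called lower in these comparisons. Their median difference from day 0 to day 14 was -0.96 in Saos-2 and -2.06 in Sa/CD99, against -0.75 and -1.23 for the members. The difference between the lists was not tested.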

How the data were processed

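The 12 samples were hybridised to 1-colour Agilent human miRNA arrays. Per the labels and methods, the authors normalized with an adaptation of RMA and deposited a table of log2 values, whose columns each hold their undetected miRNAs at 1 lowest value (-3.32 to -3.00, also the column median). The authors also deposited scanner files (Feature Extraction 10.7.3.1, per the file headers) with spot intensity values and a total signal per miRNA, not normalized between arrays. Whether the table was centred or shifted after that normalization is not stated. Within each array the table values followed the scanner signal over the detected miRNAs (r = 0.980 to 0.999 per array). This r says nothing about direction between days, where table and signal differed in sign for some members.

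The members and lists were chosen with earlier results of these data known. All 10 members are named, beside the 5 other miRNAs with the nearest course. Undetected values were set to the lowest detected value of their column. limma 3.58.1 (R 4.3.3) fitted the 6 group means over 219 miRNAs with 6 residual degrees of freedom. A difference was called at a Benjamini-Hochberg adjusted p of 0.05 where the higher group was detected on at least 1 array. Clones pair Sa/CD99 samples across days, and deviations of same-numbered samples correlated at 0.0586 to 0.289 in Sa/CD99 and 0.161 to 0.544 in Saos-2, so a block fit (correlation 0.254) was an alternative. The scanner spots were reprocessed by rma (background, quantile normalization, median polish) and by normexp, where 14 local backgrounds over 10 times the array median were replaced by it. The permutation test enumerated all regroupings of days within cell types, with p-values adjusted in SciPy 1.17.1. Array names were matched to RefSeq arms by hand from older to current names. A planned count over miRNAs of at least 60% GC was void, since only 34.7% of the tested names matched a mature sequence, under the 80% needed. The number of arrays limits the precision.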

Additional observations from a re-analysis of the deposited data

How the results depend on the processing

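The numbers of members called are given in the order Saos-2 day 0 to 7, Saos-2 day 0 to 14, Sa/CD99 day 0 to 7, Sa/CD99 day 7 to 14 and Sa/CD99 day 0 to 14, where the reported counts were 1, 1, 1, 0 and 4, against 40.6%, 50.7%, 31.5%, 7.31% and 61.6% of all tested miRNAs. With the scanner arrays as filed the counts were 0, 0, 0, 0 and 0, against 0% in each. With the matched arrays by rma they were 3, 3, 6, 1 and 8, against 47.0%, 58.9%, 40.6%, 21.5% and 72.1%. With the floor as deposited they were 3, 4, 3, 0 and 7, against 36.5%, 55.7%, 32.0%, 19.6% and 74.4%, and with quantile normalization of the columns 2, 4, 2, 0 and 8, against 45.2%, 58.0%, 37.9%, 18.7% and 74.4%. With normexp and an offset of 50 they were 3, 4, 6, 2 and 9, against 41.6%, 53.4%, 40.6%, 13.7% and 69.9%. The 75th percentile scaling of the matched scanner signal gave 4 from day 0 to 14 in Saos-2 (37.0% of all), and 2 from day 0 to 7 (25.6%) and 3 from day 7 to 14 (26.5%) in Sa/CD99. Scanner signal with no normalization gave 4 (32.0%) and 2 (23.3%) for the first 2 of these. A common floor of 2.39 gave 2 from day 7 to 14 (9.13%) and 8 from day 0 to 14 (63.0%) in Sa/CD99, and columns centred on their median gave 1 (12.3%) and 1 (44.7%). With no filter on undetected miRNAs 2 members were called from day 0 to 7 in Saos-2 (10.9% of all 851 names), and 2 also within slide 1 (43.8%). With only the groups compared in the fit, 5 (58.6%), 2 (26.5%) and 8 (78.2%) were called in Sa/CD99 from day 0 to 7, 7 to 14 and 0 to 14. The replicate block gave 3 from day 0 to 7 in Saos-2 (50.2%), 1 from day 7 to 14 (17.4%) and 5 from day 0 to 14 (66.7%) in Sa/CD99, and changed no other call. Leaving out 1 sample at a time gave 1 to 4 members from day 0 to 7 in Saos-2 (51.5% of all at the highest count), 1 to 2 (11.8%) and 1 to 5 (57.6% to 65.0%) from day 0 to 7 and 0 to 14 in Sa/CD99, 0 to 1 from day 7 to 14 in Sa/CD99, where miR-877 was called without either Saos-2 sample of day 7 (14.9% and 18.2%), and 0 to 1 between cell types at day 7 (8.71%). Where a group keeps 1 sample, that sample is assumed to vary like the others. Between cell types over all days 3 members were called with the arrays as filed and 0 under each other setting.

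miR-1225-5p kept its direction and its call from day 0 to 7 and 0 to 14 in both cell types under each setting but the arrays as filed, where the differences were -0.27 and -0.55 in Saos-2 and 0.23 and -3.43 in Sa/CD99. The falls in Sa/CD99 reversed with the arrays as filed for miR-1234 (0.15) and miR-1238 (0.27), and for miR-1234 also in scanner signal with no normalization (0.27). With columns centred on their median, miR-1225-5p was the only member called from day 0 to 14 in Sa/CD99, so none of the falls was called. The cause was not tested for any of these beyond the construction of each setting. The within-slide fits, the signal with no normalization, the fit without day 0 and the calls without the condition on detection were added after the data had been seen. The last 2 changed no count of members, while the share of all tested called in Sa/CD99 went from 31.5% to 48.9% from day 0 to 7 and from 61.6% to 71.7% from day 0 to 14 without the condition, and from 7.31% to 3.37% from day 7 to 14 without day 0. The day 0 arrays had the least signal, so members absent there are known only to lie below a bound.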
